A study of Mus musculus with 6 samples.

Results

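Voltage-gated calcium channels open when a membrane is depolarised and let calcium into the cell. Each channel is built around 1 pore-forming alpha1 subunit, and most are joined by a cytoplasmic beta subunit and by an extracellular alpha2delta subunit that raises the number of channels at the surface. The genes described here are 10 of that family, 8 for pore subunits and 2 for alpha2delta subunits, among 45703 genes in the table. They were taken by symbol: Cacna1c and Cacna1d (L-type pores), Cacna1a (P/Q-type), Cacna1b (N-type), Cacna1e (R-type), Cacna1g, Cacna1h and Cacna1i (T-type), and Cacna2d1 and Cacna2d2. All 10 were found. In sensory neurons, the N-type and P/Q-type channels drive transmitter release in the spinal cord, the T-type channel of Cacna1h sets excitability near rest, and the product of Cacna2d1 is the binding site of gabapentin and pregabalin. L-type channels also carry the calcium current of smooth and cardiac muscle.

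The study sequenced RNA from 6 replicate cultures, all of 1 group, grown from mouse dorsal root ganglia (DRG), where the cell bodies of sensory neurons lie among glia. The mice were wild type, of strain C57BL/6, aged 4 to 6 weeks, with no altered allele. Ganglia were dissociated with Liberase TH and TM, and the cells were grown on poly-L-lysine for 7 days in medium with 10% fetal calf serum and EGF and FGF at 10 ng/ml, and each library came from 2 pooled dishes. The study calls them biological replicates, but no label ties a culture to an animal, so p-values here measure only the spread between these samples, which may be partly technical, and with 1 group no condition can be compared. The libraries held 20070639 to 22968642 counts, and replicates 1 and 5 stood apart in cell type markers. In the summed CPM (the count of a gene scaled to its library's total) of each marker list, 12 neuron genes ranged from 1084 in replicate 5 to 2350 in replicate 3, and 7 glial genes from 4443 in replicate 5 to 6486 in replicate 2. The 8 fibroblast genes ranged from 3341 in replicate 1 to 14113 in replicate 5, and the 8 mural genes, of the contractile cells of vessel walls, from 307 to 2023 in the same libraries. The 6 macrophage genes ranged from 12.3 to 119 and the 6 endothelial genes from 11.5 to 117. All 12 neuron genes reached 1 CPM in all 6 libraries. At most 3 counts in every library were found for 6 of 8 skeletal muscle genes, with Myod1, Myog, Myf5 and Myh1 at 0, and for 5 of 6 T cell genes. In such bulk libraries, fewer cells of a type and less RNA per cell cannot be told apart.

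The promoters of 3 of these genes are shown because Cacna2d1 and Cacna1b had nearly the same pattern over the cultures and Cacna1c had another, as given further on. Each is the stretch from 250 bases before to 50 bases after a transcription start, read 5′ to 3′ on the gene's strand (GRCm38.p6, RefSeq), and capitals mark the GC box letters GGGCGG or their reverse complement CCGCCC, which may overlap. The Cacna2d1 stretch is chr5:15934441-15934740 on the plus strand, the Cacna1b stretch is chr2:24763103-24763402 on the minus strand, and the Cacna1c stretch is chr6:119108446-119108745 on the minus strand.
Cacna2d1: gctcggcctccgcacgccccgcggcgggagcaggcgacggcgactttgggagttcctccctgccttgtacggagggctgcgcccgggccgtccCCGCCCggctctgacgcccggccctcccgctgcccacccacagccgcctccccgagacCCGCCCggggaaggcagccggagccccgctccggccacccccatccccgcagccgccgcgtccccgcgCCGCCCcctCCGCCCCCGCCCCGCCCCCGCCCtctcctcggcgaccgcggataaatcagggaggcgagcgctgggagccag
Cacna1b: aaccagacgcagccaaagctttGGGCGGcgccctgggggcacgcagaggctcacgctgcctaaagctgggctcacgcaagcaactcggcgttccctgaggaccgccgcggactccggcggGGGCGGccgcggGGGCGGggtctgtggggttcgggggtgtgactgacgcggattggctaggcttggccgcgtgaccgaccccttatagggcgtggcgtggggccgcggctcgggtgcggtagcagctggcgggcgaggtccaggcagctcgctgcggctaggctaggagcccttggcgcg
Cacna1c: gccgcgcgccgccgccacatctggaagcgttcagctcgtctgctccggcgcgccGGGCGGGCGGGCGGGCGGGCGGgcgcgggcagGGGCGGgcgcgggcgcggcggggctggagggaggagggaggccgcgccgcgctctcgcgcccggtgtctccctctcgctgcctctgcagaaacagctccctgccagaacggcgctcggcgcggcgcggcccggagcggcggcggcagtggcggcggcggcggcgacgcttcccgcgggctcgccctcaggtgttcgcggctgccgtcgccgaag
They held 7, 3 and 6 matches in that order, and such a match was present in 35.7% of 32851 promoters of the same length. Their GC contents were 80.0%, 72.3% and 81.3%, against a median of 52.7% over all promoters. CG dinucleotides numbered 42, 35 and 57, against a median of 7. None of the 3 held TATAAA (13.6% of promoters on either strand) or TGACGTCA (1.79%), and Cacna1b held 1 CCAAT on either strand (37.4%). Cacna1c had 3 start sites in the table, and the stretch shown is the one richest in CG. The other 2, at chr6:119196360-119196659 and chr6:118757925-118758224, had 51.3% GC each and no GC box letters. The counts are per gene and do not say which start was used. Of the 10 genes, 7 had an entry; Cacna1a, Cacna1g and Cacna1h did not.

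Levels between genes are compared per length, as CPM per kilobase of the gene's combined exons. On that scale Cacna2d1 had the highest level of the 10 and Cacna1h the highest of the pore genes, and 5 of the 10 stood above the rest. Cacna2d1 averaged 11.97 ± 3.28 CPM per kb, Cacna1h 3.97 ± 0.475, Cacna1b 2.73 ± 0.701, Cacna1a 2.23 ± 0.459 and Cacna1c 1.88 ± 0.710 (SD, n = 6). The other 5 were lower. Cacna2d2 averaged 0.662 ± 0.316 CPM per kb, Cacna1g 0.200 ± 0.152, Cacna1d 0.122 ± 0.0345, Cacna1e 0.0894 ± 0.0394 and Cacna1i 0.0176 ± 0.0205 (SD, n = 6).

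**Figure D1:**
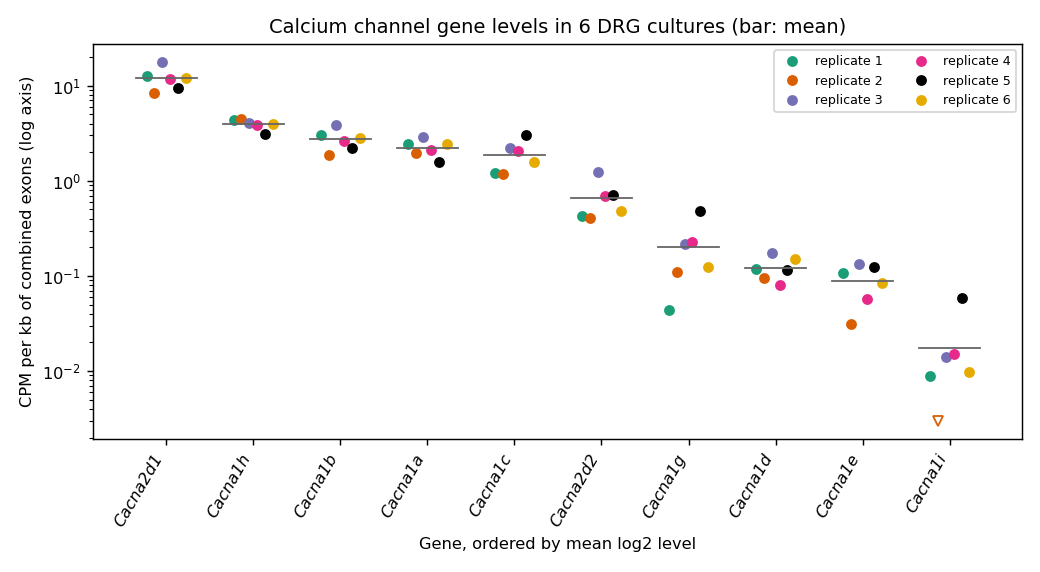
Levels of the 10 calcium channel genes in CPM per kb of combined exons on a log axis, 1 point per replicate culture and a bar at the mean. Cacna2d1 lies above the other 9 genes in all 6 cultures, Cacna1i lies lowest in all 6, and its open triangle marks the count of 0 in replicate 2.

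The order was tested within each library for all 45 pairs of the 10 genes, on log2(CPM per kb + 0.1). In 39 pairs the same gene was higher in all 6 libraries (exact sign-flip permutation p = 0.0312 each, two-sided and the smallest that 6 libraries allow; 0.0361 after Benjamini-Hochberg adjustment over the 45 pairs). Cacna2d1 exceeded Cacna1h, its neighbour in the order, by 1.53 ± 0.382 (log2, SD, n = 6), and Cacna1h exceeded Cacna1b by 0.56 ± 0.363. Cacna1c exceeded Cacna2d2 by 1.39 ± 0.377, and Cacna2d2 exceeded Cacna1g by 1.40 ± 0.560. The 6 pairs without a fixed order included 4 neighbours; the other 2 were Cacna1b with Cacna1c (0.55 ± 0.580) and Cacna1g with Cacna1e (0.55 ± 0.663). Cacna1b exceeded Cacna1a by 0.26 ± 0.182 in every library but replicate 2 (two-sided exact sign-flip permutation p = 0.0625, adjusted 0.0686). Cacna1a exceeded Cacna1c by 0.29 ± 0.660 in every library but replicate 5 (two-sided exact sign-flip permutation p = 0.281, adjusted 0.288). Cacna1g and Cacna1d differed by 0.31 ± 0.725, with Cacna1g higher in 4 of the 6 (two-sided exact sign-flip permutation p = 0.344, adjusted 0.344), and Cacna1d exceeded Cacna1e by 0.24 ± 0.225 in 5 of the 6 (two-sided exact sign-flip permutation p = 0.0625, adjusted 0.0686). The added 0.1 is not small beside the mean levels of Cacna1g (0.200), Cacna1d (0.122), Cacna1e (0.0894) and Cacna1i (0.0176 CPM per kb). Differences that involve these genes are therefore smaller than on CPM per kb alone, and their SDs can be too. With the longest coding transcript of GENCODE M21 as the length, Cacna1d ranked above Cacna1g, and the other 8 ranks were the same.

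As shares of the summed CPM per kb of the 8 pore genes, the T-type genes took 37.7% ± 5.22, nearly all of it Cacna1h at 35.7% ± 6.09 (SD, n = 6). Cacna1b took 23.9% ± 3.55, Cacna1a 19.8% ± 2.65 and Cacna1c 16.8% ± 6.37. The L-type share was lowest in replicate 1, at 11.7%, and highest in replicate 5, at 29.4%, with 13.2% to 19.6% in the other 4. Cacna1h ranged from 29.2% in replicate 5 to 45.7% in replicate 2. The 4 other pore genes held 0.158% (Cacna1i, 0.0811% without replicate 5) to 1.79% (Cacna1g) on average. Shares are of RNA in the whole culture, not of channels in a cell type.

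**Figure D2:**
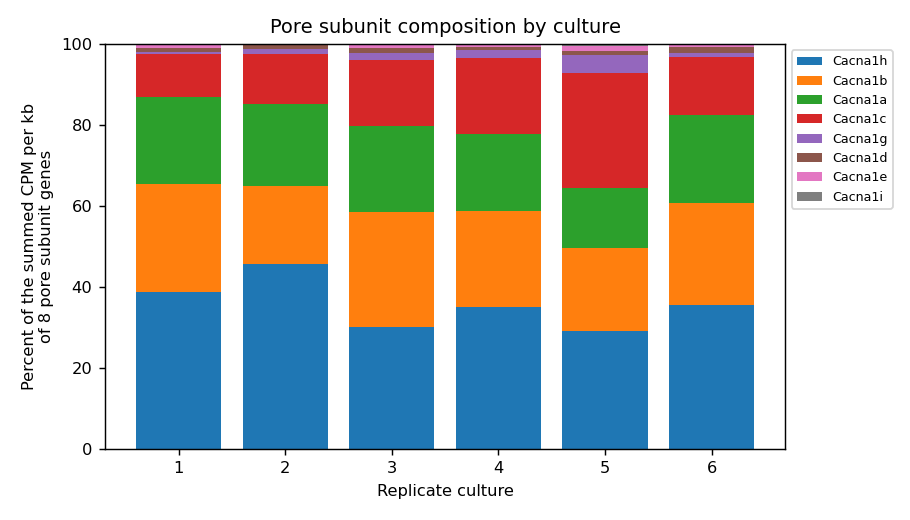
Percent of the summed CPM per kb of the 8 pore subunit genes taken by each gene, stacked for each of the 6 replicate cultures. Cacna1h, Cacna1b, Cacna1a and Cacna1c fill most of every bar, and Cacna1c is widest in replicate 5 at 28.3% and narrowest in replicate 1 at 10.6%.

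Spread between cultures was tested against counting noise by a chi-square test per gene, across the 14998 genes that edgeR's filter on low counts kept, and adjusted over all of them. The test called 76.3% of all genes. Of the 10 calcium channel genes 8 were kept, and it called all 8, a count to be read against that high background. Cacna1g and Cacna1i did not pass the filter because their counts were under its limit in at least 1 library. The SD of log2 CPM lay between 0.194 for Cacna1h and 0.561 for Cacna1e, and the median over all kept genes was 0.164. Counting noise is part of this SD and weighs more at low counts, such as the 14 to 58 counts of Cacna1e.

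Cacna2d1 (gene ID 12293, chromosome 5, 15934264 to 16374511, plus strand) had 146, 96.0, 205, 135, 109 and 139 CPM in replicates 1 to 6. Replicate 3 was the highest library and replicate 2 the lowest, 2.14-fold apart (chi-square test, Benjamini-Hochberg adjusted p = 6.2e-219). Cacna1b (gene ID 12287, chromosome 2, 24603860 to 24763200, minus strand), the N-type pore of presynaptic endings, had 36.3, 22.4, 46.4, 31.0, 26.3 and 33.7 CPM. The order of the 6 libraries was that of Cacna2d1, with replicate 3 highest, followed by 1, 6, 4, 5 and 2 (chi-square test, adjusted p = 1.49e-43). The ratio of Cacna2d1 to Cacna1b in CPM per kb was 4.18, 4.45, 4.59, 4.51, 4.30 and 4.26 in replicates 1 to 6. That ratio stayed within 4.18 to 4.59 while each gene varied about 2-fold or more, and its SD on the log2 scale, 0.053, was the smallest of the 45 pairs, followed by 0.182 for Cacna1b and Cacna1a.

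The gene whose pattern over the 6 cultures lay closest to that of Cacna2d1 was Cacna1b. The measure was the root mean square difference between log2 profiles centred on their own means, among 11932 other genes with a mean of at least 5 CPM. It was 0.0477 for Cacna1b, 0.0503 for Mapk10 and 0.0580 for Rgs17, while Cacna2d1 itself varied around its mean by 0.3304 on the same measure. For Cacna1b the closest were Rgs7bp (0.0353), Cacna2d1 (0.0477) and Mapk10 (0.0481). The search ranks genes over 6 libraries only, takes the smallest of many differences and is a description. Counting error was not part of the measure, and distances this small can lie within it, here and for the other genes. The order among the closest genes is therefore not read further.

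Cacna1a (gene ID 12286, chromosome 8, 84338631 to 84640251, plus strand), the P/Q-type pore, had 24.3, 19.4, 28.9, 20.7, 15.8 and 24 CPM in replicates 1 to 6. It was highest in replicate 3, like the preceding genes, and lowest in replicate 5 (chi-square test, adjusted p = 3.22e-18). The closest profiles were those of Maneal (0.0384), Syp (0.0468) and Ccdc92 (0.0485); Syp encodes synaptophysin, a synaptic vesicle protein.

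Relations between each calcium channel gene and the mean log2 CPM of 4 marker lists (neuron, glia, fibroblast and mural) were computed over the 6 libraries, 40 in all. Of these, 11 had an unadjusted exact permutation p-value of Pearson's r under 0.05. The background over all kept genes at that unadjusted threshold, for positive and negative relations, was 6.53% and 5.31% with the neuron list, 7.69% and 7.45% with the glia list, 11.9% and 8.37% with the fibroblast list, and 7.95% and 6.57% with the mural list. None passed after adjustment over all genes tested, where the smallest p-value that 6 libraries allow, 0.00139, limits what can pass, and 0 of the kept genes passed with any of the 4 lists. Cacna1a followed the neuron list (r = 0.97, exact permutation p = 0.00139, adjusted over all genes 0.183; Spearman's rho = 1.00, exact permutation p = 0.00278, adjusted 0.201). For Cacna1b the values were r = 0.94 (exact permutation p = 0.00833, adjusted 0.269) and rho = 0.94 (exact permutation p = 0.0167, adjusted 0.307). For Cacna2d1 they were r = 0.94 (exact permutation p = 0.00694, adjusted 0.253) and rho = 0.94 (exact permutation p = 0.0167, adjusted 0.307). The libraries farthest from the median of the neuron list were replicates 3 and 5; leaving both out gave r = 0.92, 0.99 and 0.96 in the same order. Of the 11, the relation of Cacna1a with the neuron list was the one that had an unadjusted exact permutation p under 0.05 whichever single library was left out. Leaving out replicate 3 alone gave r = 0.90 for Cacna1b and 0.91 for Cacna2d1, with an exact permutation p of 0.05 each. The summed neuron list was 1915, 1295, 2350, 1617, 1084 and 1789 CPM in replicates 1 to 6, and its part in these 3 genes was not tested.

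**Figure D3:**
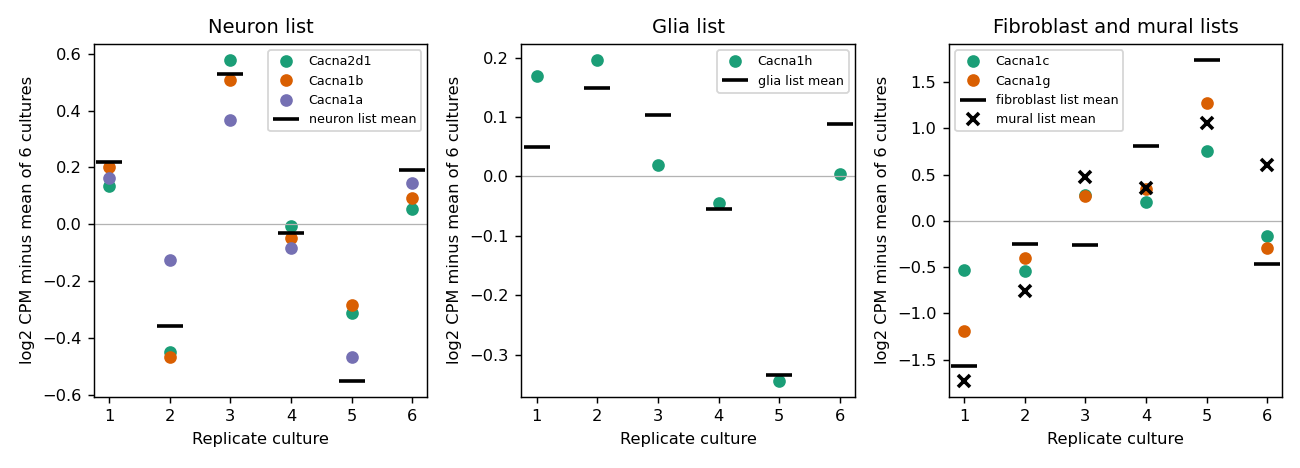
Deviation of log2 CPM from the mean of the 6 cultures, by replicate, for Cacna2d1, Cacna1b and Cacna1a with the mean of the neuron list (left), Cacna1h with the glia list (middle), and Cacna1c and Cacna1g with the fibroblast and mural lists (right); black bars and crosses are list means. The left genes peak in replicate 3, Cacna1h is lowest in replicate 5, and Cacna1c and Cacna1g are highest in replicate 5; the vertical axes differ between panels.

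Cacna1h (gene ID 58226, chromosome 17, 25374285 to 25436334, minus strand), the T-type pore known from low-threshold mechanosensory neurons, had 47.7, 47.9, 44.3, 41.8, 33.9 and 42.6 CPM in replicates 1 to 6. It varied least of the 8 kept genes, 1.41-fold between libraries, and replicate 5 was lowest (chi-square test, adjusted p = 1.46e-14). It did not share the high value of replicate 3 or the low value of replicate 2 seen in Cacna2d1 and Cacna1b, and its relation with the neuron list was r = 0.44 (exact permutation p = 0.396, adjusted 0.763) with rho = 0.37 (exact permutation p = 0.497, adjusted 0.838) and r = -0.34 without replicates 3 and 5. With the glia list it had r = 0.91 (exact permutation p = 0.0222, adjusted 0.319) and rho = 0.83 (exact permutation p = 0.0583, adjusted 0.750). The value was r = 0.16 when replicates 4 and 5 were both left out, 0.58 without replicate 5 alone and 0.91 without replicate 4 alone, so most of the relation rests on replicate 5. The summed glia list was 6485, 6486, 6222, 5721, 4443 and 6164 CPM in replicates 1 to 6; of its 7 genes, 6 were lowest in replicate 5, down to 999 CPM for Cdh19, 544 for Sox10 and 579 for Erbb3, whereas Fabp7 was highest there at 53.8 CPM against 31.8 to 52.9 elsewhere, and their part in the result was not tested. With the fibroblast list r was -0.87 (exact permutation p = 0.0389, adjusted 0.220; rho = -0.60, exact permutation p = 0.242, adjusted 0.571), and -0.47 with replicates 1 and 5 left out. Its r with the mural list was -0.80 (exact permutation p = 0.075, adjusted 0.389), with rho = -0.77 (exact permutation p = 0.103, adjusted 0.584). Leaving out replicates 1 and 2 gave r = -0.89 with that list. The closest profiles were those of Slc25a16 (0.0207), Hdac8 (0.0286) and Glt8d1 (0.0318).

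Cacna1c (gene ID 12288, chromosome 6, 118587240 to 119197384, minus strand), the L-type pore of smooth and cardiac muscle and of many neurons, had 21.4, 20.99, 39.3, 36.7, 53.7 and 27.8 CPM in replicates 1 to 6. Replicate 5 was the highest library and replicate 2, close to replicate 1, the lowest, 2.56-fold apart (chi-square test, adjusted p = 2.09e-100). In replicate 5, where Cacna1a was lowest, Cacna1c was highest. Its 5′ part lies opposite Dcp1b, which had 163 to 254 counts. Its relation with the fibroblast list was r = 0.85 (exact permutation p = 0.0444, adjusted 0.231; rho = 0.54, exact permutation p = 0.297, adjusted 0.627) and with the mural list r = 0.85 (exact permutation p = 0.0361, adjusted 0.306; rho = 0.77, exact permutation p = 0.103, adjusted 0.584). With the 2 libraries farthest from the list median left out, r was 0.46 for fibroblast (without replicates 1 and 5) and 0.66 for mural (without replicates 1 and 2). With the glia list r was -0.78 (exact permutation p = 0.0458, adjusted 0.320; rho = -0.60, exact permutation p = 0.242, adjusted 0.750), and 0.03 with replicates 4 and 5 left out; scaled by library totals it was -0.70 (exact permutation p = 0.113). The summed mural list was 307, 706, 1085, 1169, 2023 and 1238 CPM in replicates 1 to 6 and the fibroblast list 3341, 6079, 4441, 7481, 14113 and 4811 CPM. Their part in the level of Cacna1c was not tested. The closest profiles were those of Ptk2b (0.0612), Lpcat4 (0.0830) and Timeless (0.0940).

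Cacna1g (gene ID 12291, chromosome 11, 94408391 to 94474400, minus strand), a T-type pore, varied most among the pore genes with at least 10 counts in each library. Its counts were 10, 24, 46, 45, 99 and 26, or 0.435, 1.09, 2.12, 2.24, 4.73 and 1.24 CPM, in replicates 1 to 6. The value in replicate 5 (95% exact binomial interval 3.84 to 5.76 CPM) was 10.9-fold that in replicate 1 (0.209 to 0.801 CPM); the intervals cover counting error only. Tested without the filter on low counts, where 50.2% of 26854 genes were called, it varied beyond counting noise (chi-square test, adjusted p = 2.27e-23). With the fibroblast list r was 0.95 (exact permutation p = 0.0111, adjusted 0.152; rho = 0.83, exact permutation p = 0.0583, adjusted 0.368) and 0.68 with replicates 1 and 5 left out. With the mural list r was 0.87 (exact permutation p = 0.0250, adjusted 0.279; rho = 0.77, exact permutation p = 0.103, adjusted 0.584) and 0.71 with replicates 1 and 2 left out. Cacna1g had the same highest library as Cacna1c. On log2(CPM per kb + 0.1), Cacna1c exceeded Cacna1g by 2.79 ± 0.257 (SD, n = 6). Cacna1g itself had 0.0439 to 0.477 CPM per kb. The added 0.1 therefore makes this difference and its SD smaller than those of the plain ratio, which was less steady.

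Cacna1d (gene ID 12289, chromosome 14, 30039941 to 30491156, minus strand), the L-type pore of pacemaking and endocrine cells, had 46, 35, 63, 27, 41 and 53 counts in replicates 1 to 6, or 1.35 to 2.91 CPM; its 5′ part lies opposite Dcp1a, which had 743 to 856.5 counts. It passed the chi-square test with an adjusted p of 0.00902, the largest of the 8, and not without replicate 3 (adjusted p = 0.0769) or without replicate 4 (adjusted p = 0.0646). Cacna1c exceeded Cacna1d by 10.2-fold to 26.1-fold per kb in the 6 cultures. The closest profiles to that of Cacna1d were Zfp273 (0.117), Rph3a (0.128) and Epm2a (0.129). Cacna1e (gene ID 12290, chromosome 1, 154390806 to 154884785, minus strand), the R-type pore, had 50, 14, 58, 23, 52 and 36 counts, with replicate 2 lowest and replicate 3 highest, 4.20-fold apart in CPM (chi-square test, adjusted p = 2.31e-06). Unlike Cacna1a it was not low in replicate 5, at 2.48 CPM, and the closest profiles were Ptprn2 (0.180), Tenm4 (0.204) and Dgki (0.239). Cacna1i (gene ID 239556, chromosome 15, 80287238 to 80398292, plus strand), the third T-type pore, had 2, 0, 3, 3, 12 and 2 counts. In 5 of the 6 libraries it was at or under 3 counts, and the 0 of replicate 2, with 3 counts as the limit that a 0 allows, stands for up to 0.137 CPM (exact 95% binomial upper bound 0.168). The 12 counts of replicate 5 gave 0.573 CPM (95% exact binomial interval 0.296 to 1.00), and the mean over libraries was 0.174 CPM with and 0.0941 without that library. Without the filter, its chi-square adjusted p was 0.000463, with 22 counts in all. Its relation with the glia list, r = -0.96 (exact permutation p = 0.0111, adjusted 0.319; rho = -0.77, exact permutation p = 0.103, adjusted 0.750), rests on such counts and is not read further.

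The alpha2delta signal was nearly all Cacna2d1. Of the summed CPM per kb of 4 alpha2delta genes, Cacna2d1 took 88.9% ± 0.722 (SD, n = 6; 88.3% to 90.2%), Cacna2d3 6.29% ± 0.998 and Cacna2d2 4.85% ± 1.45 (3.16% with GENCODE lengths), and Cacna2d4 was at 0 counts in all 6 libraries. Cacna2d2 (gene ID 56808, chromosome 9, 107399733 to 107529346, plus strand), the other gabapentin-binding subunit, had 2.44, 2.32, 7.11, 3.99, 4.06 and 2.73 CPM in replicates 1 to 6. Replicate 3 stood highest, as for Cacna2d1, but replicate 5 was not among its low libraries, and the ratio of Cacna2d1 to Cacna2d2 ran from 13.3 in replicate 5 to 29.6 in replicate 1 (Cacna2d2: chi-square test, adjusted p = 8.46e-17). Its relation with the neuron list was r = 0.37 (exact permutation p = 0.465, adjusted 0.797; rho = 0.20, exact permutation p = 0.714, adjusted 0.904), and r was 0.08 without replicates 3 and 5. The closest profiles were Ppp1r1c (0.201), Fam131b (0.209) and Coro1a (0.212), more distant than for the other alpha2delta gene. Cacna2d2 had 51 to 154 counts per library against 2108 to 4451 for Cacna2d1, so counting error adds more to its distances. Cacna2d3 averaged 3.86 ± 0.987 CPM.

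Other subunits and partners came from fixed lists of 32 genes. Of the 4 beta subunit genes, whose products bind the pore in the cytoplasm and carry it to the membrane, all passed the chi-square test, against 76.3% of all kept genes. Cacnb3 took 80.1% ± 2.21 of their summed CPM per kb (SD, n = 6), Cacnb1 13.2% ± 1.67, Cacnb4 5.75% ± 0.969 and Cacnb2 0.984% ± 0.525. Cacnb3 averaged 72.7 ± 6.76 CPM and differed 1.28-fold between its extreme libraries, and Cacnb4 averaged 12.9 ± 3.18 CPM. Cacnb2, the beta subunit of heart muscle, had 0.566 CPM in replicate 1 and 2.44 CPM in replicate 5. The 2 remaining pore genes, Cacna1f of the retina and Cacna1s of skeletal muscle, stayed at or below 2 counts in each library, and Cachd1, an alpha2delta-like gene, averaged 34.2 ± 1.82 CPM and did not pass (chi-square test, adjusted p = 0.0662).

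The 8 gamma subunit genes were listed by name, and whether their products join these channels was not tested. Of the 8, 2 were kept and both passed the chi-square test, again against 76.3% of all kept genes. Cacng7 had 14.5, 13.3, 19.7, 17.9, 28.8 and 16.0 CPM in replicates 1 to 6, highest in replicate 5, and Cacng4 had 2.699, 4.74, 4.02, 2.99, 1.48 and 4.398 CPM, lowest there. Cacng1, of the skeletal muscle channel, Cacng6 and Cacng8 did not exceed 3 counts in any library. Among 12 channel regulators, 10 were kept and 8 passed, a share near the 76.3% of all kept genes. Stac, an adaptor of L-type channels, averaged 33.8 ± 11.5 CPM and was lowest in replicate 5 at 18.9 and highest in replicate 3 at 52.0. Stac2 averaged 26.8 ± 3.58 CPM and Stac3, the form of skeletal muscle, 0.934 ± 0.147 CPM. Of the small GTPases that inhibit these channels, Gem averaged 3.15 ± 1.20 CPM, Rrad 1.38 ± 0.376 and Rem1 0.730 ± 0.452. Rem2 did not exceed 3 counts in any library. In CPM per kb the means were 1.39 for Gem, 0.866 for Rrad and 0.455 for Rem1, with Gem and Rrad above the 0.662 of Cacna2d2. Dpysl2, whose product binds the N-type pore, averaged 102 ± 11.05 CPM. Calm2 and Calm3, which encode calmodulin, averaged 261 ± 22.9 and 270.0 ± 19.2 CPM (SD, n = 6), with fractional counts in 5 and 4 libraries. Cbarp and Stac3 did not pass (chi-square test, adjusted p = 0.0807 and 0.840).

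Thrombospondins are secreted proteins that bind the product of Cacna2d1. Thbs1 had 114, 285, 757, 815, 1350.2 and 692 CPM in replicates 1 to 6, and Thbs2 had 240.2, 331, 381, 690.1, 1330.2 and 313 CPM. Both were lowest in replicate 1 and highest in replicate 5, as were the summed fibroblast, mural, macrophage and endothelial lists, whose part was not tested. Not every gene of these lists followed its sum. Egfl7 of the endothelial list was lowest in replicate 2, at 2.64 CPM, with 5.05 CPM in replicate 1. Myh11 and Cspg4 (mural), Lum (fibroblast) and C1qa (macrophage) were highest in a library other than replicate 5. Cacna2d1, unlike Thbs1 and Thbs2, was among its lower values in replicate 5. Thbs4 averaged 2.30 ± 1.77 CPM and was not kept by the filter.

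**Figure D4:**
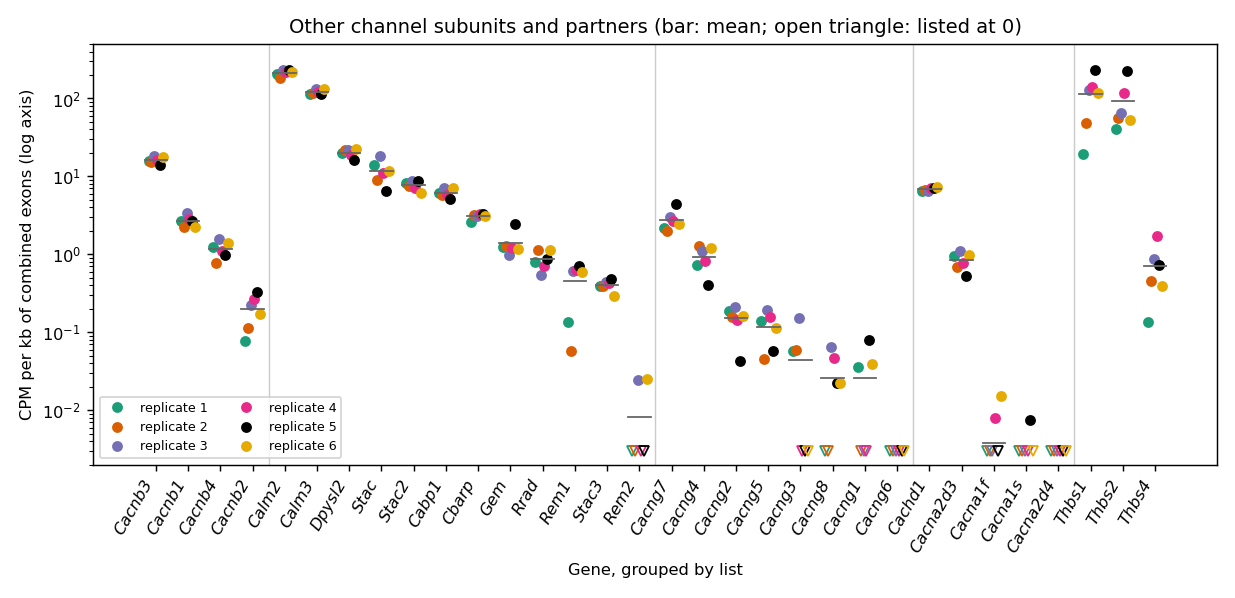
CPM per kb of combined exons on a log axis for 32 other calcium channel subunits and partners, grouped by list, 1 point per replicate culture and a bar at the mean; open triangles mark libraries at 0 counts. Cacnb3 leads the beta subunits, Cacng7 the gamma subunits and Calm2 the regulators, and Thbs1 and Thbs2 are highest in replicate 5.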

How the data were processed

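RNA was sequenced from 6 day-7 cultures of dorsal root ganglia, 1 group with replicate numbers from the titles. Stranded poly-A libraries were made, per the labels' protocols. Per the submitters' processing notes, bcl2fastq 2.20.0.422, cutadapt 2.5, STAR 2.7.2b, featureCounts 1.6.4 and GRCm38.p6 were used; their options, including strand and multi-matching reads, are not given in the sources used here. The deposited table held estimated counts per gene with no scaling; 13.4% to 14.7% of its values per library were not whole, and they were rounded before use in DESeq2 1.42.0 and edgeR 4.0.16, under R 4.3.3. It held 0 further columns of per-sample values. The deposited combined exon length (bases, all exons of a gene merged) gave CPM per kb; it can exceed a transcript's length and so lower long genes.

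Genes were kept with filterByExpr (14998) and libraries scaled by TMM for the chi-square test and for log2(CPM + 0.5). On simulated Poisson counts over 14998 genes, the chi-square test recovered 200 of 200 genes changed 3-fold, with 10 other calls. Such counts hold no spread beyond counting noise outside the changed genes. The simulation therefore does not show how the test behaves on the real libraries or on smaller changes. Pairs were tested by exact sign flips over 64 patterns and relations by 720 exact permutations. Relations were to be adjusted over the 40 alone. They were adjusted over all kept genes instead, plus the 2 genes not kept. Adjusted over the 40 as planned, none passed either. The smallest adjusted exact permutation p of Pearson's r was then 0.0556, for Cacna1a with the neuron list. Named genes were the 10 genes, the leading and undetected genes of the lists, the markers and the 3 closest profiles of each kept gene; other list genes were named after their values were seen. Of the listed regulators, 1 gene is not reported here. The genes and lists were chosen with earlier results of these data known. Alternatives tried were other scalings, filters, pseudocounts, lengths and left-out libraries.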

Additional observations from a re-analysis of the deposited data

Results flagged for a closer look

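Cacna1i stood apart in 1 library. Its log2 CPM in replicate 5 was separated from the next highest library by 0.658 of the range of the 6, above Dixon's 95% critical value for 6 samples. The values behind it were 12 counts in replicate 5 and 0 to 3 counts in the other libraries. The 10 genes were each checked at both ends, where chance flags about 0.5 of 10 genes, so a single flag is close to that. The summed fibroblast, mural, macrophage and endothelial lists were also highest in replicate 5, though not every gene in them was, and their part in this value was not tested.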

How the results depend on the processing

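No paired analysis was possible because all libraries belong to 1 group. The restriction to genes with whole counts was planned; the GENCODE lengths, the shares' alternatives and leaving out replicates 1 and 5 together were chosen after seeing the data. The number of pairs with a fixed order, 39 of 45, lay between 37 and 43 in all alternatives run. The number of calcium channel genes varying beyond counting noise, 8 of 8 tested, lay between 7 and 10 and changed mostly with the number tested. It was 10 of 10 with no filter on low counts (50.2% of all genes tested) and 7 of 7 on genes with whole counts (80.6%). It was 9 of 9 without replicate 1 (70.5%) and without replicates 1 and 5 (56.5%). Without replicate 3 (73.1%) or replicate 4 (74.8%) it was 7 of 8, as Cacna1d did not pass. The number over all genes, 11444, was 5819 of 7224 on genes with whole counts (80.6%), since fewer genes were tested, and 8685 without replicates 1 and 5. Of the 40 relations, 11 had an unadjusted exact permutation p under 0.05. With each replicate left out in turn the number was 4 to 8. It was 7 without replicate 1, 6 without replicate 3, 4 without replicate 4 and 4 without replicate 5. Without replicates 1 and 5 it was 2, where the smallest possible p is 0.0417, and fewer libraries raise that limit. These numbers run over all 40 relations and include some outside the 11. Without replicate 5, those of the 11 that stayed under 0.05 were Cacna1a, Cacna1b and Cacna2d1 with the neuron list. The 2 left without replicates 1 and 5 were those of Cacna1a and Cacna2d1 with the neuron list. No relation passed after adjustment over all genes in any of the alternatives run. Scaling by library totals left 10 of the 11, since that of Cacna1c with the glia list had r = -0.70 (exact permutation p = 0.113). With summed CPM for the lists, Cacna1c and Cacna1h with the fibroblast list had exact permutation p = 0.0972 and 0.0514, and with a pseudocount of 5 Cacna1g with the mural list had 0.0569. With GENCODE lengths Cacna1d took 1.62% of the pore sum, Cacna2d1 91.6%, Cacna2d3 5.20% and Cacna2d2 3.16% of the alpha2delta sum, and Cacnb1 10.4% and Cacnb3 83.6% of the beta sum. Of these alternative values, 117 of 123 for the main results and 275 of 330 for single genes, relations and shares counted as the same, and none of them changed direction. The values of r without the 2 libraries farthest from a list's median were not counted here. Among those, Cacna1c with the glia list, 1 of the 11 relations, went from r = -0.78 to 0.03. A level or share counted as the same when it moved by less than 1 SD between libraries, a number of genes, pairs or relations when it was within 1.5 times, and a test when it kept its direction and side of the threshold. Leaving out 1 of 6 libraries cannot move a mean by 1 SD. Levels and shares with 1 library left out therefore counted as the same whatever their values, and that label carries no information for them. Large relative moves can lie within 1 SD, as for Cacna1i without replicate 5 (0.174 to 0.0941 CPM). Depth limits Cacna1i, Cacna1g, Cacna1d and Cacna1e, which had under 100 counts in every library.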

Other observations

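In the deposited coordinates 9 of the 10 genes overlapped another gene, with 24 overlapping genes in all, 22 of them on the opposite strand. Of the 24, 15 were at 0 counts in every library and 22 had at most 12 counts in every library. The exceptions were Dcp1b, opposite the 5′ part of Cacna1c, at 163 to 254 counts, and Dcp1a, opposite the 5′ part of Cacna1d, at 743 to 856.5 counts against 27 to 63 for Cacna1d. Both encode mRNA decapping proteins. The strand setting of the counting is not given in the sources used here, so reads of these pairs may not be fully separated, and the levels of Cacna1d are less certain for that reason.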
